A study of Homo sapiens with 18 samples.

Results

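The untreated A549 cells of a study of Ludox® silica NPs were described by the 9 of 18 arrays whose titles name them as controls. A549 is an established line of human lung adenocarcinoma that grows as an epithelial sheet. The untreated cells carried no added construct. They were kept for 2 h in medium without serum, with no NPs, and then recovered in complete medium with 10% serum. They form 3 sets of 3 arrays, named here by the treated cells they were matched to: the SM30 set and the AS30 3 h set after 3 h of recovery, and the AS30 22 h set after 22 h. Within each set the arrays carry the replicate letters A, B and C. All 9 therefore share the change of medium, and none shows cells that were left alone.

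A549 cells are widely used as a model of the alveolar type II cell, the cuboidal cell of the lung that makes surfactant and renews the alveolar surface. As tumour cells they have also drifted from that origin. They are known for an overactive NRF2 pathway, in which loss of the adaptor KEAP1 leaves the transcription factor NRF2 free to raise the genes of glutathione synthesis, NADPH supply and aldehyde and ketone reduction. Below, a level is the mean of the normalised log2 signal of a probe over the 9 arrays, with its SD (n = 9). A gene was called on when at least 1 of its probes was flagged by the scanner software as well above background on all 9 arrays. It was called off when no probe of the gene had that flag on any array, and mixed in every other case. Brightness also depends on the sequence of each probe, so levels of different genes are not set against each other and the order of the brightest genes is one of probes.

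The share of non-control spots well above background was 68.5%, 69.9% and 65.5% on SM30 set arrays A, B and C, 61.7%, 61.9% and 52.4% in the AS30 3 h set, and 52.4%, 51.9% and 58.4% in the AS30 22 h set. Detection thus reached deeper in the SM30 set, and 297 genes had a probe with the flag on its 3 arrays and on no other, against 0 genes with the flag on the 6 other arrays alone. The SM30 set lay on a slide of its own, so set and slide cannot be told apart for it. The AS30 3 h arrays and AS30 22 h array A shared another slide, and AS30 22 h arrays B and C lay on 1 slide each. SM30 set array C stood apart, with 252 probes more than 2.5 log2 units below the median of the other arrays, against 1 to 23 on each of the others. Of those 252, 35.7% lay in a block of spots at one side of the array that held 8.95% of the probes compared. The number of arrays limits the precision of every value, and the spread measured between them may be partly technical.

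Of 17372 genes with a named probe, 10545 (60.7%) were on, 3056 (17.6%) were off and 3771 were mixed. A gene on can have probes that disagree, and of the genes described below HK1, ASNS, TXNRD2, IRX4, LYPD3 and POLR2A were on by 1 of 2 probes, FGA, FN1, SCD and SMARCA4 by 2 of 3, and PGK1 by 3 of 4. Levels of the genes on ranged from 6.10 to 17.89 with a median of 10.50. The brightest end was held by the machinery of translation and by a few other products of rapidly growing cells. Among the 30 brightest genes were 16 ribosomal proteins, led by RPS2 at 17.89 ± 0.12 (SD, n = 9) and RPS27 at 17.63 ± 0.29. Others were EEF1A1 (17.61 ± 0.23), which brings aminoacyl-tRNA to the ribosome, and OAZ1 (17.45 ± 0.16), the antizyme that restrains polyamine synthesis. EIF1, a factor for start codon choice, was at 17.27 ± 0.18. These families have near-identical copies and pseudogenes in the genome, so the share of each locus in such a signal is uncertain. The probes of 1 gene also differed, and RPS2 had other probes at 7.55 to 17.73.

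The rest of the brightest set joined cytoskeleton, membrane and detoxification. ACTB (17.27 ± 0.25), TUBA1B (17.24 ± 0.084) and TUBA1C (17.35 ± 0.11) encode actin and tubulin. ANXA2 (17.32 ± 0.12) and S100A6 (17.24 ± 0.17) encode calcium-dependent proteins of the membrane and cytoplasm. GSTP1 (17.30 ± 0.12), a glutathione transferase, AKR1B1 (17.28 ± 0.084), aldose reductase, and FTH1 (17.23 ± 0.16), the heavy chain of the iron store ferritin, completed it with the prion protein gene PRNP (17.31 ± 1.04). DRD4, a dopamine receptor, also fell in this set at 17.54 ± 0.52, with 16.90, 17.30 and 16.51 in the SM30 set, 17.88, 17.66 and 17.82 in the AS30 3 h set and 17.80, 17.92 and 18.03 in the AS30 22 h set. Of its 2 probes only this one was on, the other being well above background on 1 array, and its SM30 set values all lay below the other 6.

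Many transcripts of the translation machinery begin with a C followed by a run of C and T, the 5′ terminal oligopyrimidine tract through which their translation follows nutrient supply. The windows of 30 bases around the annotated start, from RefSeq on GRCh38.p14, are printed for members of the brightest set. They show windows in which a tract was counted and windows in which none was. They run 5′ to 3′ on the transcribed strand, from 10 bases before the start, and capitals mark the run that was counted as a tract. Of the 11 ribosomal proteins of the set that were matched 7 held one, and RPL7A and RPL19 stand for the 4 that did not.
RPS27: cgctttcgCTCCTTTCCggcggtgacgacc
RPS16: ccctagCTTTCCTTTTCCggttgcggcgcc
RPLP0: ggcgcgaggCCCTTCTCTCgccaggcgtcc
RPS6: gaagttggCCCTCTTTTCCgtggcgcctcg
RPS14: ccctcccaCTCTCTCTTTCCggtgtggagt
RPLP1: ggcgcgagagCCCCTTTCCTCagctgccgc
RPS28: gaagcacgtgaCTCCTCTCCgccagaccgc
RPL7A: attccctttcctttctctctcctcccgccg
RPL19: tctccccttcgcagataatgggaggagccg
EIF1: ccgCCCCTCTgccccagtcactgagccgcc
GSTP1: cgaggCCTTCgctggagtttcgccgccgca
EEF1A1: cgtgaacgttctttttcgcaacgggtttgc
AKR1B1: ggccaaggccgcaccgtactgggcgggggt
TUBA1C: aagtagaagaaagtgaacaatgggcgccca
The windows lie at chr1:153990752-153990781 (plus strand) for RPS27, chr12:120201092-120201121 (minus strand) for RPLP0 and chr7:134459081-134459110 (minus strand) for AKR1B1. A tract was counted when a C that did not follow C or T, with at least 4 more bases of C or T after it, stood anywhere from 10 bases before to 9 after the start. The sequence of 21 of the 30 genes was matched. Of these, 9 (42.9%) held a tract, against 23.9% of all 27305 promoters searched the same way and 25.6% of 8613 genes whose probe was on. Among ribosomal proteins as a whole the count was 28 of 46 (60.9%), and among the brightest genes outside that family 2 of 10, which were EIF1 and GSTP1. In these 2 the run ends 1 base before the annotated start and so lies outside the annotated transcript. In RPL7A, RPL19 and EEF1A1 the window holds a run of C and T that begins with T and was not counted. A missing match says only that no run met the rule, not that the window lacks runs of C and T.

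**Figure D1:**
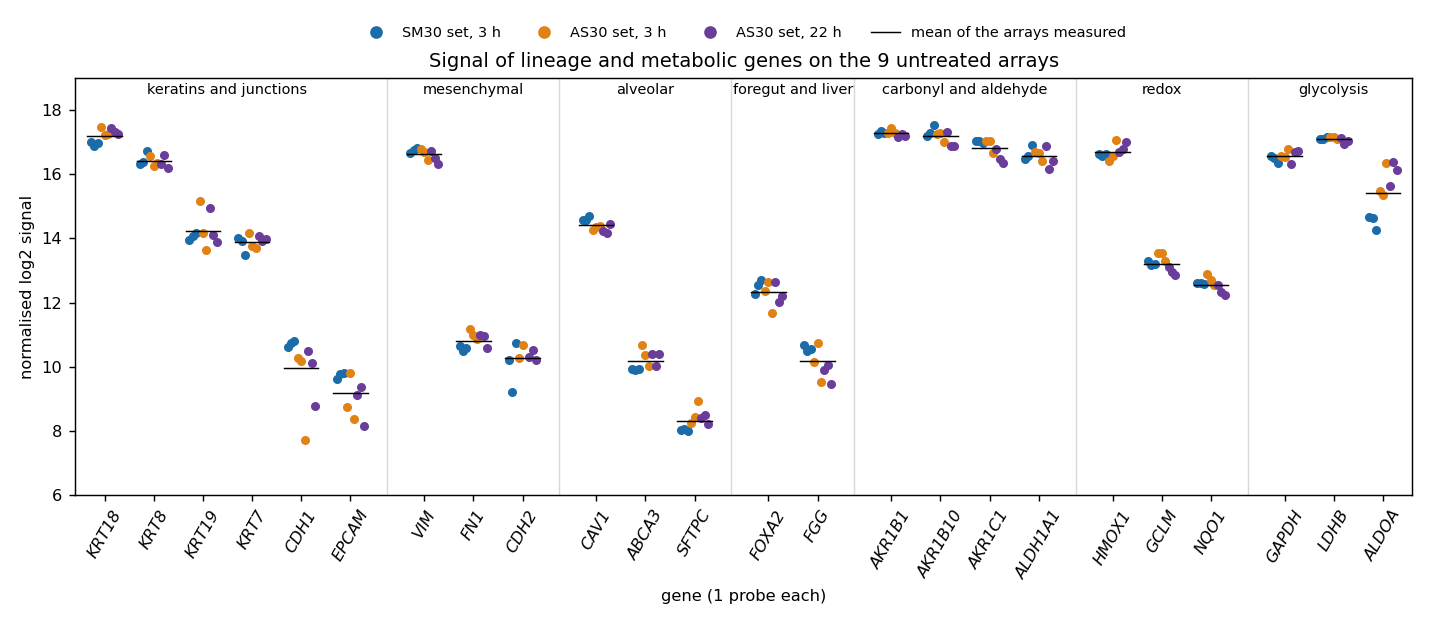
Normalised log2 signal (vertical axis) of 24 named genes (horizontal axis) on each of the 9 untreated arrays, with points coloured by set and a black line at the mean. The points of KRT18, at 16.88 to 17.49, lie close together, while those of ALDOA spread from 14.25 to 16.37 with the SM30 set lowest.

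Markers of simple epithelium were examined first, since they define the line. All 4 keratins of the list were on: KRT8 (16.42 ± 0.17), KRT18 (17.20 ± 0.21), KRT19 (14.24 ± 0.50) and KRT7 (13.89 ± 0.21). KRT18, the filament partner of KRT8, read 17.00, 16.88 and 16.96 in the SM30 set, 17.49, 17.24 and 17.25 in the AS30 3 h set and 17.43, 17.32 and 17.27 in the AS30 22 h set. The SM30 set lay below the other 6 arrays, and 3 of its 4 probes were on. Of 20 markers 11 were on, 7 mixed and 2 off, a share close to the 60.7% of all genes. The junction genes TJP1 (11.86 ± 0.38), DSP (12.54 ± 0.30), PKP3 (13.28 ± 0.17) and CLDN3 (8.41 ± 0.33) were on. The junction genes CLDN4, CLDN7 and OCLN were mixed, with the flag on 4, 5 and 8 arrays. E-cadherin, CDH1, was on at 9.96 ± 1.04, with 10.62, 10.74 and 10.80 in the SM30 set, 10.27, 10.16 and 7.72 in the AS30 3 h set and 10.50, 10.11 and 8.77 in the AS30 22 h set. The SM30 set lay above the other 6 arrays, AS30 3 h array C and AS30 22 h array C read lowest, and EPCAM, an epithelial adhesion molecule at 9.19 ± 0.64, had its lowest values on the same arrays, 8.36 and 8.16. The epithelial transcription factor GRHL2 was off.

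Mesenchymal genes were partly on beside the epithelial ones. VIM, the intermediate filament of mesenchymal cells, was on at 16.64 ± 0.17, with 16.68, 16.75 and 16.81 in the SM30 set, 16.79, 16.69 and 16.44 in the AS30 3 h set and 16.74, 16.50 and 16.33 in the AS30 22 h set. Its 9 values overlapped between sets. CDH2 (10.26 ± 0.47), which encodes N-cadherin, FN1 (10.80 ± 0.23), fibronectin, and SNAI1 (10.39 ± 0.65), a repressor of CDH1, were on too. Of the other transcription factors listed, TWIST1 was on by 1 of 2 probes. SNAI2, ZEB1 and ZEB2 were mixed, with the flag on 6, 6 and 8 arrays. In all 10 of 18 members were on, 4 mixed and 4 off, near the 60.7% of all genes. Fibroblast genes were divided, with COL1A2, COL3A1, DCN and PDGFRB off and COL1A1 (7.03 ± 0.34), FBN1 (7.88 ± 0.30), ACTA2 (8.79 ± 0.35) and THY1 (12.15 ± 0.99) on. SPARC, a matrix protein, had an SD of 1.52 that rested on SM30 set array A, where it read 5.24 against 8.97 to 10.10 elsewhere.

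Alveolar type II markers, which the origin of the line calls for, were divided. Of 16 members 8 were on, 6 mixed and 2 off, near the shares of 60.7% on and 17.6% off over all genes. SFTPB and SFTPA2 were off. SFTPC was on by 1 of 2 probes at 8.30 ± 0.30, and SFTPA1 by 1 of 3 at 6.22 ± 0.61. SFTPA1 and NAPSA (6.18 ± 0.56, 1 of 2 probes) lay near 6.10, the lowest level of the genes on. NKX2-1, the lung lineage transcription factor, was well above background on 8 of 9 arrays, whereas SFTPD had the flag on 3 and the lamellar body gene LAMP3 on 2. Members on included the lamellar body lipid transporter ABCA3 (10.18 ± 0.28), the surfactant lipid enzyme LPCAT1 (10.41 ± 0.42), the protease CTSH (10.24 ± 0.16) and the transcription factor CEBPA (14.26 ± 1.20). All SM30 set values lay below all 6 others in 5 of these 8 genes, against 17.4% of all genes with a measured spread. Of the surfactant genes, then, some were on and others off.

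Among alveolar type I markers 6 of 11 were on, near the 60.7% of all genes, with CAV1, the coat protein of caveolae, at 14.41 ± 0.17 and CAV2 at 13.11 ± 0.52. AGER, which defines type I cells, was mixed with 7 arrays, and CLIC5 was off. Club and goblet markers were on for 6 of 13, somewhat under that share. AGR2, a mucin folding factor, was at 13.09 ± 0.68 and SCGB3A2, a secretoglobin, at 10.02 ± 0.51, while SCGB1A1 had the flag on 8 arrays and SCGB3A1 on none. Basal and squamous markers were also on for 6 of 13, with KRT5 off and S100A2 at 11.62 ± 0.22. Ciliated markers were on for 1 of 12, far under 60.7%, namely RSPH1 at 7.95 ± 0.49, and 7 were off.

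Genes of liver and foregut endoderm formed a mixed group, with 11 of 26 on, 9 mixed and 6 off, under the 60.7% on of all genes. The transcription factors FOXA1 (10.10 ± 0.39) and FOXA2 (12.34 ± 0.34) were on, and HNF4A was off with all 3 probes. The 3 fibrinogen chains FGA (8.85 ± 0.28), FGB (8.91 ± 0.81) and FGG (10.17 ± 0.48) were on. AFP, APOA1, APOA2 and APOB, plasma proteins made by liver, were off, and ALB was mixed with 2 arrays. FGG, the gamma chain, read 10.69, 10.50 and 10.56 in the SM30 set, 10.16, 10.72 and 9.52 in the AS30 3 h set and 9.91, 10.04 and 9.45 in the AS30 22 h set. The sets overlapped, with AS30 3 h array C and AS30 22 h array C lowest as for CDH1.

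Markers of most other cell types that the culture should not hold were seldom on. The count on was 1 of 11 for endothelial cells, 2 of 15 for gastric and intestinal epithelium, 3 of 15 for blood cells, 4 of 15 for neuroendocrine cells and 1 of 15 for cancer-testis antigens, all below the 60.7% of all genes. PECAM1, CDH5 and TEK, markers of endothelium, and PTPRC and MS4A1, markers of leukocytes, were off. ESAM (7.94 ± 0.73) of endothelium was on, as were CD14 (7.81 ± 0.38), CD3E (7.15 ± 0.54, 1 of 2 probes) and CD79A of blood cells. TFF1 (11.54 ± 0.91) and MUC2 (9.16 ± 0.88, 2 of 3 probes) were the gastric and intestinal members on. Another 5 endothelial, 7 blood and 8 gastric and intestinal members were mixed. PRAME, an antigen of many tumours, was the cancer-testis member on, at 12.95 ± 0.17. UCHL1, a ubiquitin hydrolase of neurons that many lung tumour lines share, was on at 16.95 ± 0.28. The secretory granule genes CHGA (7.57 ± 0.45) and CHGB (7.74 ± 0.80, 1 of 2 probes) and the amine enzyme DDC (9.65 ± 0.58) were also on, and SYP and NEUROD1 were off. Muscle, neuron and glia genes were on for 7 of 15, nearer the share of all genes. MYOD1 of muscle (9.24 ± 0.74), SNAP25 of synapses (8.26 ± 0.49) and GFAP of glia (8.69 ± 0.79, 1 of 3 probes) were on, and CKM, DES and OLIG2 were off.

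A few of these unexpected genes were bright and followed the division between sets. GRIN1, a glutamate receptor subunit, was on by 2 of 3 probes at 12.91 ± 1.51, with 11.71, 11.29 and 10.19 in the SM30 set, 13.16, 13.39 and 14.46 in the AS30 3 h set and 13.54, 14.35 and 14.13 in the AS30 22 h set. The SM30 set lay below the other 6 arrays. CD79A, part of the B-cell receptor, was at 11.40 ± 1.29, with 9.66, 10.42 and 9.95 in the SM30 set, 11.02, 11.32 and 13.23 in the AS30 3 h set and 11.48, 12.88 and 12.63 in the AS30 22 h set. It gave the same order while other B-cell genes were off. Whether such probes read their named transcript was not tested.

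**Figure D2:**
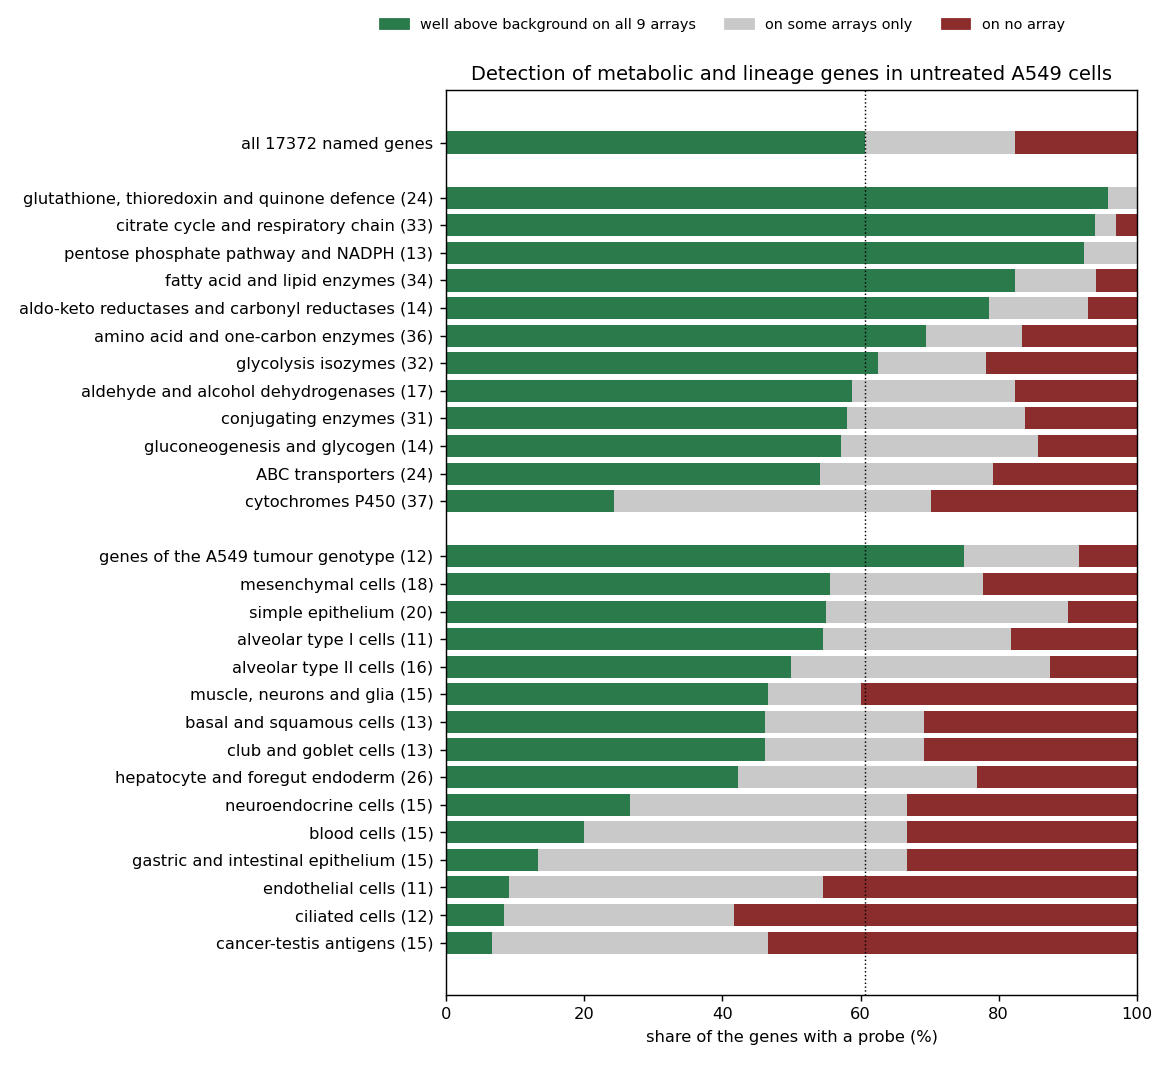
Percent of the measured members of each gene list (horizontal axis) that were on, mixed or off over the 9 untreated arrays, with a dotted line at the 60.7% of all genes that were on. Defence, respiratory and NADPH lists lead the metabolic lists, and ciliated, endothelial and cancer-testis lists close the lineage lists with 1 member on in each.

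For the genes of the known A549 tumour genotype, 9 of 12 were on, against 60.7% of all genes. STK11 (10.09 ± 0.35), KEAP1 (12.62 ± 0.19) and SMARCA4 (11.11 ± 0.24) had signal, and an array of this kind does not read their sequence. CDKN2A and CDKN2B encode inhibitors of the cell cycle that the line is known to have lost. CDKN2B was off with both probes. CDKN2A was on by 1 of 2 probes at 10.94 ± 0.27, with 10.75, 10.64 and 10.61 in the SM30 set, 11.06, 11.35 and 11.35 in the AS30 3 h set and 10.91, 10.97 and 10.86 in the AS30 22 h set. That probe, at chr9:21958039-21958098 of build hg18, had the flag on all arrays, so for this probe the data go against the known loss, and what it hybridised with was not tested. NFE2L2, which encodes NRF2, had the flag on 8 arrays and was mixed. Its level was 12.19 ± 0.41 over the 8 arrays measured, and SM30 set array A had no value. CDKN1A, another inhibitor of the cell cycle, was on at 12.02 ± 0.40.

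The defence genes, some of which NRF2 is known to control, were on nearly throughout. Of 24 genes of glutathione, thioredoxin and quinone defence, 23 were on and 0 off, against 60.7% of all genes on. Other lists had a like share, with 19 of 20 reference genes and 31 of 33 citrate cycle and respiratory chain genes on. The count is thus no measure of NRF2 activity, which was not tested. GCLC (12.79 ± 0.38) and GCLM (13.22 ± 0.23) form the enzyme that limits glutathione synthesis, SLC7A11 (11.43 ± 0.44) imports cystine for it, and TXN (16.37 ± 0.40), PRDX1 (16.88 ± 0.26) and SRXN1 (14.60 ± 0.32) reduce oxidised proteins and peroxides. NQO1, the quinone reductase, was at 12.56 ± 0.20. HMOX1, haem oxygenase, was at 16.71 ± 0.22, with 16.63, 16.56 and 16.63 in the SM30 set, 16.40, 16.57 and 17.07 in the AS30 3 h set and 16.71, 16.79 and 17.02 in the AS30 22 h set. No set stood apart for it. The exception in the list was PRDX2, mixed with the flag on 1 array.

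Reductases of aldehydes and ketones showed the same pattern. Of 14 aldo-keto and carbonyl reductases with a probe 11 were on, above the 60.7% of all genes. Only AKR1D1, of bile acid synthesis, was off. AKR1B10, which reduces retinal and lipid aldehydes, was at 17.18 ± 0.22, its probe lying at chr7:133876479-133876538 of hg18. It read 17.20, 17.29 and 17.53 in the SM30 set, 17.27, 17.28 and 17.02 in the AS30 3 h set and 17.31, 16.88 and 16.89 in the AS30 22 h set. The sets overlapped, and both probes of the gene were on. AKR1C1 (16.82 ± 0.27) and AKR1C3 (17.05 ± 0.15, 7 arrays measured after outlier spots were left out), steroid and prostaglandin reductases, share much of their sequence, so their signals are uncertain. AKR1B1 read 17.26, 17.34 and 17.28 in the SM30 set, 17.29, 17.45 and 17.28 in the AS30 3 h set and 17.16, 17.26 and 17.19 in the AS30 22 h set, a range of 17.16 to 17.45 with the sets overlapping. Aldehyde and alcohol dehydrogenases were on for 10 of 17, near the share of all genes. ALDH1A1, which makes retinoic acid, was at 16.58 ± 0.24, and ALDH3A1, an aldehyde dehydrogenase of cornea and airway, at 13.72 ± 0.54. The ADH genes of liver were not on, and ADH5, the formaldehyde enzyme of all tissues, was at 11.97 ± 0.13.

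NADPH supply was almost complete, with 12 of 13 genes on, against 60.7% of all genes. PGD (14.78 ± 0.35), TKT (16.53 ± 0.15) and TALDO1 (15.48 ± 0.14) belong to the pentose phosphate pathway, and ME1 (12.60 ± 0.081) and IDH1 (12.79 ± 0.18) make NADPH in the cytosol. TKTL1 was the mixed member. Citrate cycle and respiratory chain genes were on for 31 of 33. The members not on were COX4I2 and COX7A1, forms of cytochrome c oxidase subunits found in lung and muscle. COX6A2, the heart and muscle form of another subunit, was on at 15.40 ± 1.15, with 14.62, 14.03 and 13.27 in the SM30 set, 15.82, 15.85 and 16.39 in the AS30 3 h set and 15.86, 16.28 and 16.51 in the AS30 22 h set. The SM30 set lay below the other arrays by more than 1 log2 unit, and the adjusted p of limma's F-test over the 3 sets was 0.011.

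At most steps of glycolysis the isozyme of general tissue was on, and several forms of liver, muscle or germ cells were off. Of 32 genes 20 were on, 5 mixed and 7 off, near the 60.7% on of all genes. At the aldolase step ALDOA was on, and at the pyruvate kinase step PKM (14.55 ± 0.50) was on and the liver and red cell gene PKLR off. GAPDH, PGK1 and PGAM1 were on, and their germ cell or muscle counterparts GAPDHS, PGK2 and PGAM2 off. The glucose transporter SLC2A1 (13.21 ± 0.31) was on, and SLC2A2 of liver and SLC2A4 of muscle and fat were off. HK1 (11.04 ± 0.36) was on and HK2 mixed with 7 arrays. Exceptions were ENO3 of muscle (12.64 ± 0.36), ENO2 of neurons (9.52 ± 0.44) and PFKM of muscle (12.11 ± 0.17), which were on. LDHC, the testis form of lactate dehydrogenase, was also on at 9.01 ± 0.46 beside LDHA (16.00 ± 0.10) and LDHB (17.10 ± 0.071).

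**Figure D3:**
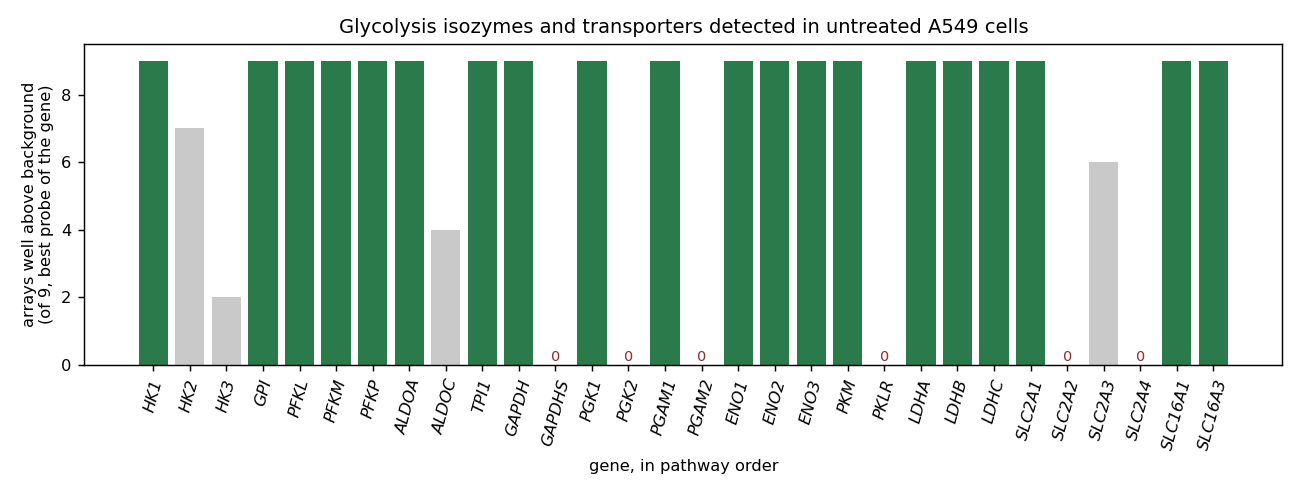
Bars give the number of the 9 untreated arrays (vertical axis) on which the best probe of the glycolysis genes shown (horizontal axis, in order of the reactions) was well above background. GAPDHS, PGK2, PGAM2 and PKLR stand at 0 beside an isozyme of the same step at 9.

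The members of glycolysis differed in how steady they were. LDHB read 17.10, 17.10 and 17.16 in the SM30 set, 17.15, 17.16 and 17.10 in the AS30 3 h set and 17.14, 16.95 and 17.03 in the AS30 22 h set, an SD of 0.071 over arrays that overlapped between sets. ALDOA read 14.68, 14.62 and 14.25 in the SM30 set, 15.46, 15.37 and 16.34 in the AS30 3 h set and 15.65, 16.37 and 16.13 in the AS30 22 h set. Its SM30 set values were all below the other 6, and the adjusted p of limma's F-test was 0.02. Both ALDOA probes were on. PFKL, the liver-type phosphofructokinase, had an SD of 0.97, while PFKP of platelets and tumours was at 15.71 ± 0.25. Glucose output was incomplete, since G6PC1 was off with both probes and PCK1 and FBP1 had the flag on 1 array each, but the mitochondrial PCK2 was on at 12.55 ± 0.19. In that list of gluconeogenesis and glycogen 8 of 14 genes were on, near the 60.7% of all genes.

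Amino acid and one-carbon enzymes were on for 25 of 36, somewhat above the 60.7% of all genes. Serine synthesis and its folate branch were on throughout, with PHGDH (11.15 ± 0.37), PSAT1 (14.03 ± 0.23), PSPH (12.89 ± 0.28), SHMT2 (13.39 ± 0.27) and MTHFD2 (13.69 ± 0.27). KYNU, which splits kynurenine, was on at 15.66 ± 0.28 although the entry enzyme IDO1 was off and TDO2 was mixed with 5 arrays. The liver enzymes OTC, TAT, BHMT and MAT1A were off. MAT2A, the methionine adenosyltransferase of tissues outside the liver, was on at 16.25 ± 0.43. Fatty acid and lipid enzymes were on for 28 of 34, also above the share of all genes. Among them were the desaturases FADS1 (14.12 ± 0.28), FADS2 (14.41 ± 0.18) and SCD (12.42 ± 0.43).

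Cytochromes P450 had the lowest share on of the metabolic lists. Of 37 cytochromes P450, which oxidise drugs, steroids and lipids, 9 were on, 17 mixed and 11 off. The count rose to 16 when 5 of the 9 arrays sufficed and to 19 with the positive and significant flag. CYP24A1, which breaks down vitamin D, was on at 13.57 ± 0.33 with both probes, and read 13.46, 13.76 and 14.06 in the SM30 set, 13.42, 12.94 and 13.36 in the AS30 3 h set and 13.60, 13.63 and 13.93 in the AS30 22 h set. CYP1B1 (11.70 ± 0.59) of dioxin and oestrogen metabolism, CYP3A5 (12.56 ± 0.47, 1 of 2 probes), CYP2R1 (11.86 ± 0.20) and CYP51A1 (12.07 ± 0.44) of vitamin D and cholesterol synthesis were on. CYP2E1, CYP2C8 and CYP2C19 of liver, and the steroid enzymes CYP17A1 and CYP19A1, were off. CYP1A1 had the flag on 6 arrays and CYP3A4 on 4. Conjugating enzymes were on for 18 of 31, near the share of all genes, with NNMT at 14.67 ± 0.14 and MGST1 at 15.17 ± 0.26, and GSTA1 and SULT2A1 off. ABC transporters were on for 13 of 24, near the share of all genes too. The efflux pumps ABCC2 (12.82 ± 0.16), ABCC3 (13.55 ± 0.27) and ABCG2 (12.36 ± 0.37) were on, and ABCB1, the multidrug pump P-glycoprotein, was off.

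Lists of growth were on in full or nearly so. All 25 genes of mitosis and G2/M, all 22 of cholesterol synthesis and all 18 of ATF4 and amino acid stress were on. So were 20 of 21 S phase genes and 57 of 58 ribosomal proteins, against 60.7% of all genes. CCNB1, the mitotic cyclin, was at 13.94 ± 0.15, TOP2A, the topoisomerase of dividing cells, at 13.14 ± 0.26, and PCNA, the clamp of DNA replication, at 14.49 ± 0.30. TRIB3 (15.34 ± 0.26) and ASNS (14.60 ± 0.26), targets of ATF4, were on. RPSA, the ribosomal protein off, had 1 probe. In bulk RNA fewer expressing cells and less RNA per cell cannot be told apart. Ribosomal proteins had a median SD of 0.197, against 0.276 over all genes and 0.219 in the brightest decile. Their SM30 set values lay above all 6 others in 26 of 57 and below in 4, against 19.2% and 17.4% of all genes.

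Among stress lists 22 of 24 immediate-early genes, 16 of 20 hypoxia genes, 9 of 20 interferon-stimulated genes and 9 of 17 circadian clock genes were on. The share over all genes was 60.7%, which the interferon and clock lists did not reach. Immediate-early genes are induced within minutes by serum, and all 9 arrays had seen serum return. EGR1, a zinc finger factor of this class, read 12.51, 12.49 and 12.73 in the SM30 set, 10.61, 10.21 and 10.45 in the AS30 3 h set and 12.60, 12.08 and 13.04 in the AS30 22 h set. The AS30 3 h set lay lowest and did not overlap either of the others, and the adjusted p of limma's F-test was 0.0074. FOS, a subunit of AP-1, read 10.84, 10.91 and 10.60 in the SM30 set, 9.93, 10.63 and 10.28 in the AS30 3 h set and 11.96, 11.70 and 12.85 in the AS30 22 h set, with the AS30 22 h set above every other array and an adjusted p of 0.013 by limma. PER1, a clock gene with 1 of 2 probes on, read 6.65, 7.70 and 7.63 in the SM30 set, 7.00, 7.37 and 7.72 in the AS30 3 h set and 8.90, 9.02 and 9.42 in the AS30 22 h set, also highest in the AS30 22 h set, with an adjusted p of 0.013 by limma. On the slide shared by the AS30 3 h set and AS30 22 h array A, that array was above the other 3 for EGR1, at 12.60, and for FOS, at 11.96. That is 1 array against 3, and whether recovery time, culture or slide accounts for these differences was not tested. Of 22 immediate-early genes tested 5 were called, against 19.7% of all genes. The F-test covers the 3 sets together and does not test which of them is highest or lowest. With the AS30 sets alone, or without SM30 set array B, limma called no probe, as given below.

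The spread over the 9 arrays was small for most genes on. Over 10532 genes with a spread the SD had a median of 0.276, with 0.147 at the 10th percentile and 0.529 at the 90th, and the median SD within sets was 0.198. It was 0.368 in the dimmest decile of genes and 0.219 in the brightest. An SD under 0.1 was found for 216 genes and over 1 for 176. The first principal component held 55.8% of the variance of 18503 probes. On it the SM30 set scored -43.6, -45.9 and -64.8, the AS30 3 h set 5.51, 0.856 and 48.8, and the AS30 22 h set 15.9, 39.8 and 43.4. The SM30 set thus lay at one end, and AS30 3 h array C lay with AS30 22 h arrays B and C at the other.

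**Figure D4:**
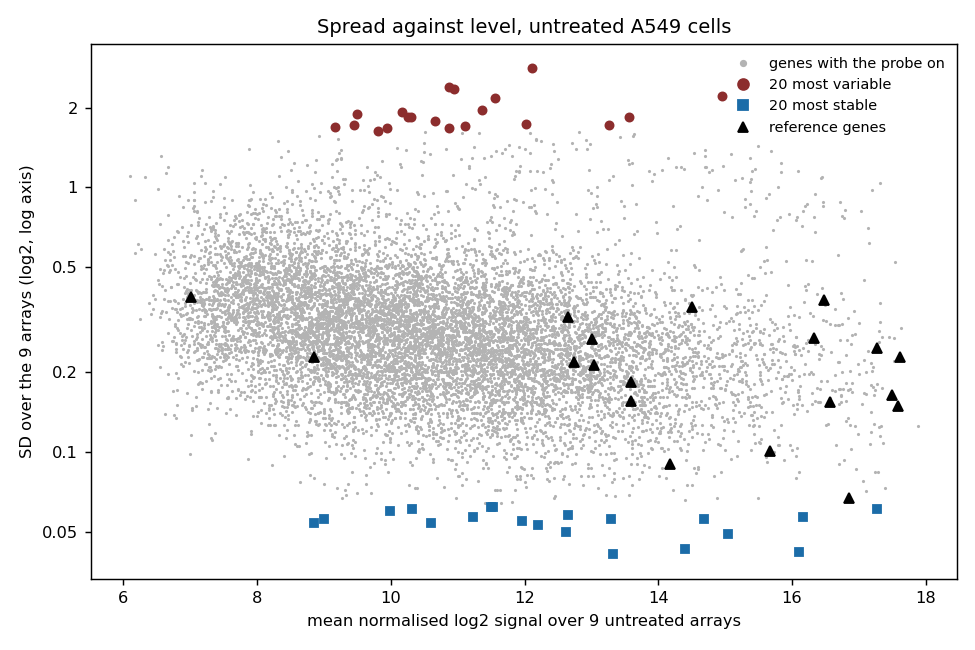
SD over the 9 untreated arrays (vertical axis, log scale) against the mean normalised log2 signal (horizontal axis) of each gene with its probe well above background on all arrays, with the 20 most variable, 20 most stable and the reference genes marked. The spread narrows from a median of 0.368 in the dimmest decile to 0.219 in the brightest.

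Most of the 20 most variable genes fell into 3 patterns. In 15 of the 20, ACOT7 and ANKFY1 included, all SM30 set values lay below all 6 others, and in 0 above, against 17.4% and 19.2% of all genes. A gap between sets itself raises the SD by which the 20 were chosen, so these shares do not test the pattern. CACNA1E, a calcium channel subunit, had the widest SD, 2.82 around 12.11, with 10.43, 10.28 and 6.11 in the SM30 set, 12.52, 12.62 and 14.92 in the AS30 3 h set and 12.89, 14.74 and 14.46 in the AS30 22 h set. The SM30 set was low and AS30 arrays 3 h C and 22 h B highest, at 14.92 and 14.74. ZSCAN10, a zinc finger gene of stem cells, read 12.77, 10.91 and 10.19 in the SM30 set, 14.24, 14.69 and 14.98 in the AS30 3 h set and 14.53, 14.94 and 14.82 in the AS30 22 h set, which repeats the gap between sets with a narrow range inside the AS30 sets. Others of this pattern were the developmental transcription factors FOXE1 (SD 1.96) and IRX4 (1.92), the Wnt antagonist NKD2 (1.72) and the GDNF family receptor GFRA4 (1.74). The other 2 probes of FOXE1 had SDs of 0.178 and 0.213, so that its probes disagree. So do those of NKD2, with 0.346 for the second probe, and of IRX4, with 0.423 and the flag on 5 arrays. LYPD3 (SD 1.64) was the last gene inside the 20 and SYNPO (1.62) the first outside.

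A second pattern was a single low array. ACOT7, TMSB4X, CCDC167, POLR2D and ANKFY1 each had their lowest value on SM30 set array C. TMSB4X, thymosin beta 4, which binds actin monomers, read 15.74, 15.73 and 9.08 in the SM30 set, 15.62, 15.75 and 15.58 in the AS30 3 h set and 15.88, 15.71 and 15.54 in the AS30 22 h set, so that 8 values lay within 15.54 to 15.88 and 1 at 9.08. ACOT7, an acyl-CoA thioesterase, read 4.73 there. The other probe of POLR2D, an RNA polymerase II subunit, had an SD of 0.197 over all arrays, and that of TMSB4X 0.143. That of ANKFY1 had 0.508. These other probes were dimmer, at 7.84 against 10.67 for POLR2D, 7.91 against 14.96 for TMSB4X and 7.93 against 9.45 for ANKFY1. The spots of CCDC167 and TMSB4X lay in the block of that array described above, and those of the other 3 did not. With SM30 set array C left out, 12 of the 20 genes were among the 20 most variable again.

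CEACAM6, a cell adhesion molecule of epithelium and of many adenocarcinomas, was alone in the third pattern. It read 12.52, 10.97 and 12.16 in the SM30 set, 13.65, 12.89 and 7.14 in the AS30 3 h set and 13.15, 12.56 and 8.96 in the AS30 22 h set. AS30 3 h array C and AS30 22 h array C were low, the arrays on which CDH1 and EPCAM were also lowest, and its second probe had an SD of 2.31 with the flag on 8 arrays. The adjusted p of limma's F-test over sets was 0.95 for it, since the spread lay within sets, where its SD was 2.48.

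**Figure D5:**
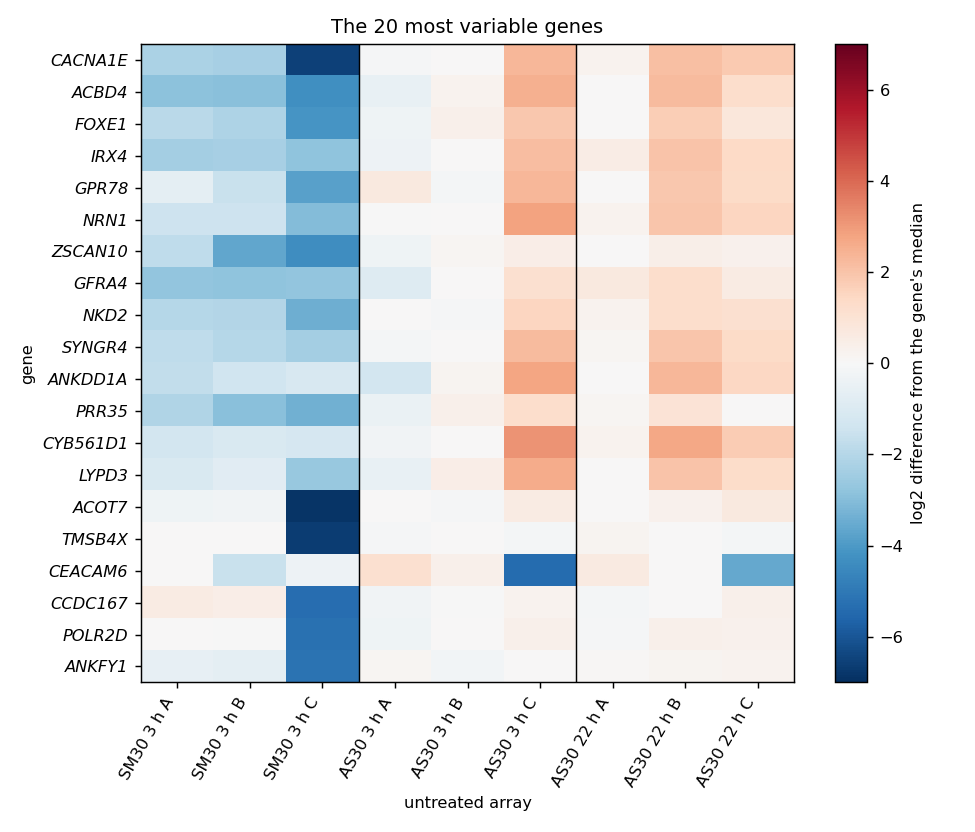
Difference in log2 signal from each gene's median (colour) for the 20 most variable genes (vertical axis) on the 9 untreated arrays (horizontal axis). Most genes are low on the 3 SM30 set arrays, ACOT7, TMSB4X, CCDC167, POLR2D and ANKFY1 are low on SM30 set array C, and CEACAM6 is low on the C arrays of both AS30 sets.

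The 20 most stable genes had SDs of 0.041 to 0.062. RAB10, a small GTPase of vesicle transport, came first at 13.33 ± 0.041 (8 arrays), followed by SLC25A5 (16.10 ± 0.042), the mitochondrial ADP/ATP carrier, SUPT4H1 (14.39 ± 0.043), a transcription elongation factor, and VDAC1 (15.04 ± 0.049), the porin of the outer mitochondrial membrane. SDHAF1 (11.96 ± 0.055), COX6B1 (14.69 ± 0.056) and MICU2 (12.20 ± 0.053) also serve mitochondria, and RPL6 (16.16 ± 0.057) and RPL7A (17.28 ± 0.061) the ribosome. SUPT4H1 read 14.38, 14.39 and 14.43 in the SM30 set, 14.32, 14.41 and 14.44 in the AS30 3 h set and 14.44, 14.39 and 14.33 in the AS30 22 h set. No array stood apart for it, but its second probe had an SD of 0.277, and the second probe of GOLGA7 one of 0.415. THUMPD3 (SD 0.062) was the last gene inside the 20 and CYREN (0.064) the first outside. The order depends on the processing, because after normexp background correction 0 of these 20 were among the 20 most stable.

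Reference genes used to normalise PCR were on for 19 of 20, and IPO8 had the flag on 6 arrays. Their median SD was 0.219, against 0.276 over all genes. RPL13A, a ribosomal protein, was the steadiest at 16.85 ± 0.067, with 16.92, 16.89 and 16.71 in the SM30 set, 16.89, 16.89 and 16.82 in the AS30 3 h set and 16.82, 16.90 and 16.80 in the AS30 22 h set. PGK1 of glycolysis, at 15.68 ± 0.10, was also steady. POLR2A (7.01 ± 0.38), RPS18 (16.47 ± 0.38) and TUBB (14.51 ± 0.35) had the widest spread of the list. ACTB was at 17.27 ± 0.25, with 16.77, 16.98 and 17.19 in the SM30 set, 17.33, 17.34 and 17.44 in the AS30 3 h set and 17.48, 17.49 and 17.44 in the AS30 22 h set, and its SM30 set values lay below the other 6. GAPDH was at 16.57 ± 0.15, and its adjusted p by limma's F-test was 0.67.

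Whether probes differed among the 3 sets was asked with a moderated F-test. Its count of calls does not measure how much of the spread lay between sets. Of 28179 probes tested by limma 5928 (21.0%) were called at an adjusted p under 0.05, and 2079 (19.7%) of 10532 genes. When the AS30 sets were tested alone, in a smaller fit of 6 arrays, 0 of 28010 probes were called by limma, with 2340 under an unadjusted p of 0.05. Among the 4 arrays that shared a slide 0 of 25934 were called, with 1066 under the unadjusted value. Without SM30 set array B the count was 0, with 7874 under the unadjusted value, and it was 1343 without array A, 1572 without array C and 3269 without AS30 22 h array B. By list, limma called 11 of 28 fatty acid and lipid enzymes, 7 of 31 citrate cycle and respiratory chain genes, 10 of 57 ribosomal proteins, 3 of 23 defence genes, 2 of 20 glycolysis isozymes and 0 of 9 cytochromes P450. The called defence genes were GCLC (adjusted p 0.013 by limma), SRXN1 (0.017) and TXNRD2 (0.039), a mitochondrial thioredoxin reductase.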

How the data were processed

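Total RNA was labelled with Cy3 and hybridised to one-colour Agilent arrays by the authors, and per the labels the RNA had passed a check of its integrity. Per the file headers, each array was read out by Feature Extraction 10.5.1.1, and the intensity values deposited for its spots are linear and already background-corrected. They also deposited a table of quantile-normalised intensity values, which served as an alternative. Probe positions are on build hg18. The methods call the 3 arrays of a condition biological replicates and give no detail of the cultures.

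Of 45015 spots per array 43376 were not control spots, standing for 41000 probes. A symbol was found through the accession for 23958 probes, through the name in the file for 2755, and 14287 stayed unnamed. The deposited intensity was put on the log2 scale and quantile-normalised across the 18 arrays, outlier spots were dropped and replicate spots averaged. The packages were limma 3.58.1 and statmod 1.5.0 in R 4.3.3. A probe was well above background on an array when more than 50% of its spots had the flag. A gene took its level from the probe with the highest mean, and a spread needed 7 measured arrays. The F-test used the 9 untreated arrays with 6 residual degrees of freedom and Benjamini-Hochberg adjustment, on probes with at most 33% missing values over the 18 arrays. It was tested on simulated data. Columns of other samples not used numbered 0.

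The genes named are the 30 brightest, the 20 most variable, the 20 most stable, the reference genes and members of the gene lists whose counts the text gives. Members and lists were chosen with earlier results of these data known. Alternatives were another scaling, background correction, flag, filter and block, and leaving out each array. Some members of the lists are counted but not reported here by name.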

Additional observations from a re-analysis of the deposited data

Results flagged for a closer look

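Values far from the other 8 untreated arrays were looked for in the 65 named genes by the ratio of the gap at one end to the whole range. By chance about 1 in 20 groups of values would exceed the limit, a rate that does not hold here because 20 of the genes were chosen for their spread over the same arrays. The limit was passed by 7 genes, all on SM30 set array C, and 5 of them are among those 20. The ratio was 0.95 for TMSB4X, 0.886 for POLR2D, 0.873 for ACOT7, 0.864 for CCDC167, 0.837 for ANKFY1 and 0.619 for PRNP, each with its lowest value there. It was 0.521 for RPL19, which read highest there. PRNP read 14.75 on that array against 16.78 on the next. These genes share 1 array and are not independent of each other, and 252 probes lay far below the other arrays on it. Whether the array or the culture accounts for them was not tested.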

How the results depend on the processing

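The number of genes on was 10533 to 12289 under every alternative run. The number off was 3081 to 3320, except 1226 with the positive and significant flag. Leaving out each array gave 10545 to 10775 genes on and 3082 to 3320 off. Counts on within the 37 gene lists stayed within 1.5 times in 464 of 481 recomputations and rose by more than that in 17. The count on was 1 to 3 for ciliated and for endothelial cells and 2 to 5 for gastric and intestinal epithelium. It was 3 to 6 for blood cells and 1 to 4 for cancer-testis antigens. For simple epithelium it was 11 to 17, for interferon-stimulated genes 9 to 14 and for cytochromes P450 9 to 19.

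The median SD over probes was 0.298, and became 0.210 after normexp, 0.331 for probes positive and significant, 0.286 to 0.306 without each array, 0.236 in the AS30 sets alone and 0.224 on slide 1 alone. Of the 30 brightest genes 23 to 30 were kept, and 26 to 30 without each array. Of the 20 most variable genes 11 were kept after normexp, 12 in the deposited table, 12 with outlier spots kept, 8 with the positive and significant flag, 4 in the AS30 sets alone and 12 to 20 without each array. Of the 20 most stable 7 were kept after 75th percentile scaling, 0 after normexp, 2 in the AS30 sets alone and 11 to 17 without each array, with 11 without SM30 set array A, 12 without AS30 3 h array A and 13 without AS30 22 h array A.

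Probes called by limma's F-test numbered 5928, and 0 to 8530 without each array. They were 0 of 28010 in the AS30 sets alone (2340 at an unadjusted p under 0.05) and 0 of 25934 on slide 1 alone (1066). A replicate block gave 4319, and slide as a random block 4358. Same-letter arrays deviated together at correlations of -0.145 to 0.453, with 2 of 9 over 0.1. Both lay between the AS30 sets, at 0.453 for A and 0.416 for C, where B gave -0.145. The letters were not taken as a pairing. The fit of the AS30 sets alone held no block for them, so a pairing between those sets was not tested. The AS30 and slide 1 alternatives were chosen after seeing the data. For each change the cause was not tested.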
